A study of Homo sapiens with 20 samples.

Results

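The PD-L1 and JAK2 neighbourhood of chromosome band 9p24 was described in ChIP-seq peak lists of the human melanoma cell line M14. Members were all peaks that overlapped 1 of 10 genes or the 10 kb on either side of it: JAK2, INSL6, INSL4, RLN2, RLN1, PLGRKT, CD274, PDCD1LG2, RIC1 and ERMP1, with the gene bounds of GENCODE on hg19. The windows merged into 6 blocks that held 777 kb of the 915 kb stretch chr9:4974390-5889537. They contained 301 peaks, which merged into 36 sites out of 224475 sites in the whole series. The cells carried a doxycycline-inducible STAG2 shRNA, and cultures without doxycycline (WT) were compared with cultures given it (STAG2-KD, for 5 d in replicate 1, the replicate whose labels state the time). Each of the 4 antibodies, against STAG1, STAG2, CTCF and SMC1A, had 2 libraries per condition, which made 16 lists; no list was given for the input libraries. All 16 libraries therefore came from 1 line with 1 shRNA construct, and WT cells also carried the uninduced construct. Nothing in the labels says that the libraries of a group came from separate cultures. The 2 replicates were prepared and called differently, so WT and KD were compared within a replicate.

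Cohesin is a ring of SMC1A, SMC3 and RAD21 that is completed by either STAG1 or STAG2, and it extrudes DNA into loops that often stop at CTCF bound in a given orientation. CD274 encodes PD-L1 and PDCD1LG2 encodes PD-L2, the ligands of the T cell inhibitory receptor PD-1. JAK2 is a kinase of the interferon-gamma receptor, whose signalling induces CD274 in part through the transcription factor IRF1. INSL6, INSL4, RLN2 and RLN1 encode relaxin-family peptides, PLGRKT a plasminogen receptor, RIC1 a partner of RGP1 in RAB6 activation, and ERMP1 a metallopeptidase of the endoplasmic reticulum.

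The sequences below, read from hg19, are shown because the strongest CTCF sites and the CD274 promoter carry the results. Capitals mark the CTCF core CCNNNAGNNGG, searched on both strands within 100 bp of the CTCF summit, and each line is written 5′ to 3′ on the strand that holds the match. The first lines cover the sites in the KIAA2026 intron at the MLANA side (chr9:5886252-5886322, plus strand), upstream of INSL6 (chr9:5186578-5186648, plus) and in the first part of JAK2 (chr9:4988066-4988136, minus). The last is the match at the CD274 start (chr9:5450578-5450606, minus), inside its first exon.
KIAA2026 intron: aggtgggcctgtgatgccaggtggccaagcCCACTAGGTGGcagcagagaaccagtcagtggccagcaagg
INSL6 upstream: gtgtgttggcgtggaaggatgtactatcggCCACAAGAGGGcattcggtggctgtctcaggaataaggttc
JAK2 intron: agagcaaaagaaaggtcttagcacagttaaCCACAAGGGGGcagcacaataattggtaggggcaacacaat
CD274 start: cgctccctaCCTGCAGGCGGacagaagcg

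The core was found at 10 of the 15 CTCF sites (66.7%) that had a peak in all 4 CTCF lists, against 1 of 15 windows moved by 5 kb. Over the genome, 49.6% of 69531 such sites held it, and 10.6% after the same move. The nearest match lay on the plus strand at 4 sites and on the minus strand at 6. The plus matches lay at the JAK2 start, upstream of INSL6, at the PLGRKT start and in the KIAA2026 intron. Those at the JAK2 and PLGRKT starts were 53 and 75 bp from the summit, and the other 8 nearest matches were within 30 bp. The strand of a match at such a distance may not be that of the bound site. The minus matches lay in introns of JAK2, PLGRKT, RIC1 and ERMP1, in the overlap of RIC1 and ERMP1, and at the CD274 start. At the ERMP1 start and at the ERMP1 intron site chr9:5798691-5800028, the second and the third strongest CTCF sites by sum of ranks, these letters were not in the window. The sequence around the summit of the intron site (chr9:5799382-5799452, plus strand) is shown for comparison. Also shown are the CTCF site that was lost near RIC1 (chr9:5626030-5626100, plus) and the SMC1A site that was gained in PLGRKT (chr9:5389193-5389263, plus). None of the 3 holds an exact match of the core within 100 bp of the summit. Only exact matches were searched, so a sequence without one can still hold a near match.
ERMP1 intron: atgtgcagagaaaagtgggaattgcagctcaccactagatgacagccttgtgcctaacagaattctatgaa
RIC1 upstream, CTCF lost: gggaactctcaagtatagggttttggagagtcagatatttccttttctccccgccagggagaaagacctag
PLGRKT intron, SMC1A gained: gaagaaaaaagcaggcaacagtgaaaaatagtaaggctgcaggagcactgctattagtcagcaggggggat

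The 260 bases before the first annotated CD274 start (chr9:5450243-5450502, plus strand) were searched for the motif TTCNNNGAA (GAS), the interferon-type motif GAAANNGAAA (ISRE) and the CTCF core, all in capitals below. The promoter held 1 GAS at chr9:5450417-5450425, 2 overlapping ISRE matches on the minus strand between 5450334 and 5450349, and 1 CTCF core on the minus strand that ended 4 bases before the start. Among the same 260 bases of 20163 protein-coding genes, 6.31% held a GAS, 3.13% an ISRE and 27.6% a CTCF core. None of the other 9 genes held a GAS or an ISRE in the window before its outer 5′ bound, which for ERMP1 is the start of a longer transcript, so its canonical promoter was not searched. A match is a match of letters and not a measured binding site of any factor.
CD274 promoter: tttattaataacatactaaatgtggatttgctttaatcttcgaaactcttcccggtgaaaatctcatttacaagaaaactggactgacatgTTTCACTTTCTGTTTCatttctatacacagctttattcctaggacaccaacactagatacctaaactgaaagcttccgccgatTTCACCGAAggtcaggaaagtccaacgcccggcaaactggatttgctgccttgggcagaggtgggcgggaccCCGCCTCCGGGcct

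The lists held 58521 to 91582 peaks in replicate 1 and 98453 to 150308 in replicate 2. Library sizes ran from 20.2 to 46.7 M reads (replicate 1) and from 37.4 to 71.7 M (replicate 2), as recovered from the peak statistics with a genome size of 2.7 Gb. Peak density in the windows was 16.7 to 38.6 peaks per Mb, below the genome's density in all 16 lists and below that of chromosome 9 in 13 of them. A list held 13 to 17 member peaks in replicate 1 and 18 to 30 in replicate 2. STAG2, the targeted protein, had 79115 peaks in WT and 58521 in KD in replicate 1, and 119021 and 106203 in replicate 2. STAG2 peaks were thus fewer in KD in both replicates, and most remained.

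Cohesin and CTCF were concentrated at few places (the map of the stretch). Of the 36 sites, 10 had a peak in all 16 lists, 17 in 2 to 15 lists and 9 in a single list. The 10 lay at starts of JAK2, INSL6, CD274 and ERMP1, in introns of JAK2, PLGRKT, RIC1, ERMP1 and KIAA2026, and in 1 intergenic place between PLGRKT and CD274. Of the 36 sites, 17 were seen in replicate 2 alone and 0 in replicate 1 alone. Peaks of SMC1A in any list were found at 30 sites, STAG2 at 23, CTCF at 22 and STAG1 at 20.

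**Figure D1:**
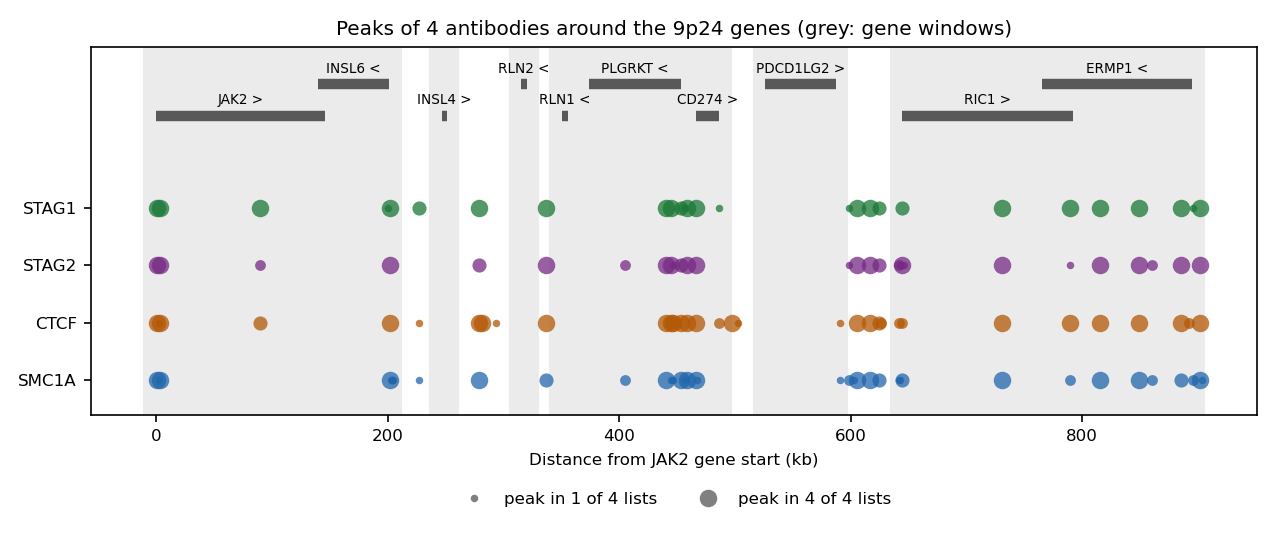
Sites along the stretch by distance from the JAK2 gene start (kb), 1 row per antibody, with gene bodies above and gene windows shaded; the size of a point gives how many of the 4 lists of the antibody held a peak. Large points recur in the same columns in all 4 rows, while the INSL4 and RLN2 windows hold none.

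The 10 genes differed widely in the peaks they held. Over the 16 lists, the ERMP1 window had 85 peaks, PLGRKT 79, RIC1 54, JAK2 50, CD274 39 and INSL6 21, where a peak in 2 windows counted for both genes. PDCD1LG2, next to CD274 and with a window of its own, had 2, which were a CTCF and an SMC1A peak of WT replicate 2, both at chr9:5574926-5575271 past its end. INSL4, RLN2 and RLN1 had 0 peaks in every list.

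At the CD274 start, STAG2 reads were equal or nearly so in WT and STAG2-KD, while the deposited STAG2 fold enrichment was lower in KD in both replicates. The site chr9:5450093-5451416 had a peak in all 16 lists, with its median summit 51 bp from the nearest annotated CD274 transcript start. STAG2 reads at the summit were 115 in WT and 115 in KD in replicate 1, and 142 and 144 in replicate 2. Divided by each library's genome background, the STAG2 levels were 57.9 and 60.9 in replicate 1 and 39.4 and 38.8 in replicate 2. The KD to WT ratio was 1.05 (95% counting interval 0.805 to 1.37) and 0.984 (0.775 to 1.25), the highest of the 10 sites in both replicates on this measure. Over the genome the median STAG2 ratio was 0.765 and 0.92, and 88.8% and 68.1% of sites had a lower ratio than CD274. In percentiles of peak strength within a list, STAG2 at CD274 went from 83.8 to 85.6 and from 93.2 to 92.8.

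The fold enrichment over the local background gave another order. For STAG2 at the CD274 start it was 36.9 in WT and 27.8 in KD in replicate 1 and 30.8 and 23.7 in replicate 2, ratios of 0.753 and 0.768 against genome values of 0.757 and 0.904. On this measure CD274 stood at place 4 and place 7 from the highest of the 10 sites. The reads expected from the local background at this summit were 1.99 in WT and 3.13 in KD in replicate 1, and 3.61 and 5.1 in replicate 2. Reads at the summit were thus alike, and the local background was higher in KD. Fold ratios of the other antibodies at this start were 0.827 and 0.81 for STAG1, 0.91 and 0.728 for CTCF, and 0.974 and 0.933 for SMC1A. The series holds no input library particular to an antibody, so these ratios may share a local background and are not separate readings. In replicate 1 the expected reads went from 2.08 to 2.96 (STAG1), 0.896 to 1.59 (CTCF) and 1.02 to 2.48 (SMC1A). Such values rest on few reads, and in replicate 1 the WT values of all 4 antibodies equalled the genome background of their libraries. The STAG2 WT value of replicate 2 did so too.

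STAG1, CTCF and SMC1A levels were read at the same place. STAG1 levels were 38 in WT and 44.2 in KD in replicate 1 and 28.4 and 27.9 in replicate 2. The STAG1 ratio of 1.16 (0.84 to 1.61) in replicate 1 was the lowest of the 10 sites and below the genome median of 1.32, with 22.9% of genome sites lower. In replicate 2 it was 0.984 (0.745 to 1.3), with a genome median of 1.07. CTCF levels were 104 and 121 in replicate 1 and 67.8 and 69.2 in replicate 2, for ratios of 1.16 (0.878 to 1.55) and 1.02 (0.804 to 1.29). SMC1A levels were 29.3 and 45.4, then 24.7 and 28.8, with ratios of 1.55 (0.967 to 2.52) and 1.17 (0.828 to 1.65). Every one of these 8 intervals included 1, and they cover counting error only. The interval of the STAG2 ratio lay above the genome median of 0.765 in replicate 1 and included the genome median of 0.92 in replicate 2.

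**Figure D2:**
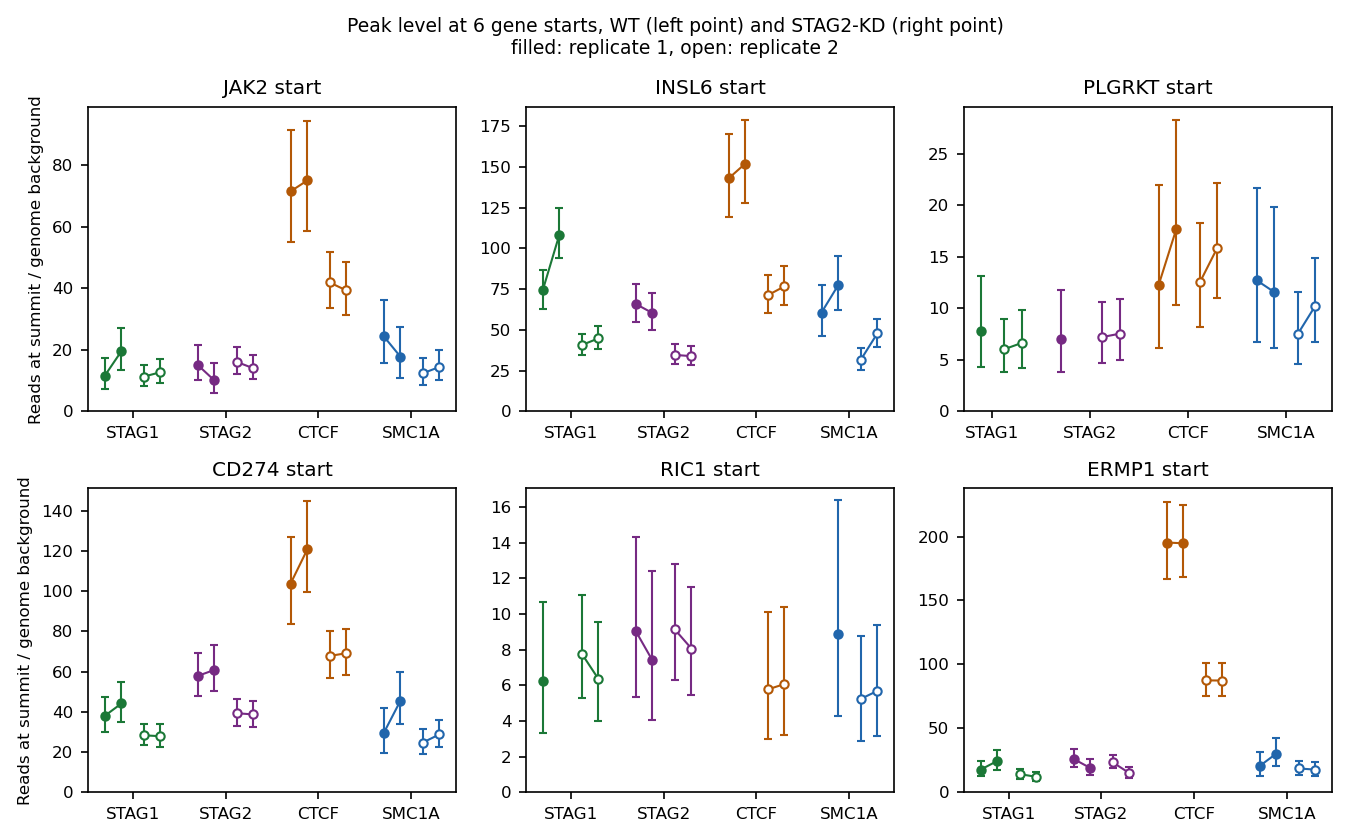
Reads at the summit divided by the genome background of the library at 6 gene starts, WT on the left and STAG2-KD on the right of each pair, with 95% Poisson intervals; replicate 1 is filled and replicate 2 open, and a missing point has no peak. At the CD274 start the STAG2 pairs are 57.9 and 60.9, and 39.4 and 38.8, on this measure, which does not divide by the local background, and at the ERMP1 start they step down (26.2 to 19.1, 23.6 to 15.1).

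The intergenic site chr9:5442085-5443291 lay between PLGRKT and CD274. STAG2 levels there were 49.8 in WT and 32.3 in KD in replicate 1 (ratio 0.648, 0.463 to 0.901), and 25.8 and 25.3 in replicate 2 (0.981, 0.729 to 1.32). STAG1 levels were 49.1 and 71 in replicate 1, a ratio of 1.45 (1.11 to 1.9), and 30.9 and 32.6 in replicate 2 (1.06, 0.814 to 1.37). The interval of replicate 1 excluded 1 for both STAG proteins, and that of replicate 2 for neither. At the last exon of CD274 (chr9:5470197-5470619) there were 3 weak peaks, all in replicate 2.

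At JAK2, the start and an intron site 2.81 kb from the nearest annotated JAK2 transcript start had peaks in all 16 lists. At the start (chr9:4984071-4986422), STAG2 levels were 15.1 in WT and 10.1 in KD in replicate 1 and 16.1 and 14 in replicate 2. STAG1 levels were 11.6 and 19.6, then 11.3 and 12.7. This was the STAG2 site with the largest mean change in percentile among the members, from 53.4 to 23.1 and from 75.5 to 66.3. By rank it went from 36859 to 45009 and from 29162 to 35808. The STAG2 ratios, 0.666 (0.354 to 1.22) and 0.87 (0.587 to 1.29), nevertheless had intervals that included 1, and 28.2% and 35% of genome sites had lower ratios. The STAG2 fold ratios at this start were 0.485 and 0.583, against genome values of 0.757 and 0.904. CTCF levels at the JAK2 start were 71.4 and 75 in replicate 1 and 41.9 and 39.3 in replicate 2. The CTCF fold ratios were 1.03 and 0.657, against genome values of 1.03 and 0.974. At the intron site the STAG2 ratio of level was 0.601 (0.364 to 0.976) and 0.971 (0.69 to 1.37). The STAG1 ratio of level there was 1.59 (1.08 to 2.35) and 1.1 (0.796 to 1.52). A weaker site deeper in the gene, chr9:5073583-5074177, had STAG1 in 4 lists, CTCF in 3, STAG2 in 2 and SMC1A in 0.

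The strong site before INSL6 was among the 5 strongest CTCF sites. At chr9:5186013-5187264, 992 bp before INSL6, STAG1 levels were 74.2 and 109 in replicate 1 and 40.7 and 44.8 in replicate 2. STAG2 levels were 65.9 and 60.4, then 34.7 and 33.9, for ratios of 0.915 (0.706 to 1.19) and 0.979 (0.758 to 1.26). STAG2 fold enrichments were 37.5 and 36.7, then 17.5 and 24.9, for ratios of 0.979 and 1.43. STAG2 percentiles were higher in KD in both replicates, 86.06 and 88.13, then 86.55 and 90.78. SMC1A levels were 60.7 in WT and 77.5 in KD in replicate 1, and 31.4 and 47.8 in replicate 2. Their ratios were 1.28 (0.912 to 1.8) and 1.52 (1.14 to 2.03). KD replicate 2 listed 5 SMC1A peaks in the INSL6 window, against 1 in each of the other SMC1A lists, and the added peaks had 9 to 12 reads. Nearer to the start, chr9:5184855-5185102 held a single STAG1 peak of 13 reads, in KD replicate 2.

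In PLGRKT the intron site chr9:5424592-5425738 had peaks in all 16 lists and the start did not. At the intron site STAG2 levels were 65.9 and 42.9 in replicate 1 (ratio 0.65, 0.487 to 0.865) and 36.3 and 31.5 in replicate 2 (0.867, 0.67 to 1.12). The STAG2 fold ratios there were 0.468 and 1.17, so the direction in replicate 2 depended on the measure. STAG1 levels were 50.1 and 80 in replicate 1 and 35.7 and 35.4 in replicate 2. At the PLGRKT start (chr9:5437085-5439173) the levels were low, between 6.03 and 17.7 in all the lists that had a peak. There STAG1 was missing from WT and STAG2 from KD in replicate 1, and both had peaks in both conditions of replicate 2.

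RIC1 and ERMP1 ended the stretch. The RIC1 start (chr9:5628349-5630012) was weak, with STAG2 in 4 lists, STAG1 and SMC1A in 3 each and CTCF in 2. STAG2 there was among the 3 largest changes, with percentiles of 33.3 in WT and 17.8 in KD in replicate 1 and 62.9 and 42.5 in replicate 2, at ratios of 0.818 (0.377 to 1.74) and 0.883 (0.52 to 1.49). Its STAG2 rank went from 52794 to 48131 in replicate 1, a higher place in a shorter list, and from 44166 to 61024 in replicate 2. One more site within 1 kb of RIC1, chr9:5630057-5630379, held a STAG2 peak of 19 reads in WT replicate 2 alone. The ERMP1 start (chr9:5832078-5833749) combined strong CTCF, 195 and 195 in replicate 1 and 87.6 and 87.4 in replicate 2, with moderate STAG2. CTCF reads there were 175 and 187 in libraries of 20.2 and 21.6 M reads (replicate 1). In replicate 2 they were 182 and 187, in libraries of 37.4 and 38.5 M. Whether reads at such strong sites had reached an upper limit was not tested. The STAG2 ratio at the ERMP1 start was 0.728 (0.463 to 1.14) and 0.64 (0.448 to 0.907). In replicate 2 that was the lowest of the 10 sites and the 1 STAG2 interval below 1, and 2.74% of genome sites had a lower ratio. At the start of the longer ERMP1 transcript, chr9:5879468-5879972 held 3 peaks of 10 to 15 reads, all in replicate 2. In the ERMP1 intron at chr9:5798691-5800028, STAG2 levels were 73.5 in WT and 49.8 in KD in replicate 1 (ratio 0.677, 0.517 to 0.884) and 43.2 and 39.8 in replicate 2 (0.921, 0.731 to 1.16). STAG1 levels there were 58.8 and 81.1 in replicate 1 (1.38, 1.08 to 1.77) and 35.7 and 42 in replicate 2 (1.18, 0.932 to 1.49). In the RIC1 intron at chr9:5714834-5715779, STAG1 had the highest ratio of the 10 sites in replicate 1, 1.84 (1.15 to 2.98), from levels of 14.9 and 27.4, and a ratio of 1.01 (0.668 to 1.54) in replicate 2. The strongest CTCF site was the KIAA2026 intron site chr9:5885683-5887077, 4.59 kb from the MLANA start. MLANA encodes the melanocyte antigen MART-1. STAG2 levels there were 104 and 83.7, then 50.2 and 47.1, and STAG1 levels 91.5 and 122, then 45.7 and 52.6. This site stood at a percentile of 90.6 or more in all 16 lists, with STAG2 ratios of level of 0.807 (0.652 to 0.998) and 0.939 (0.758 to 1.16). The STAG2 fold enrichment went the other way in replicate 1, from 44.7 to 54.2 (ratio 1.21). In replicate 2 it went from 37.2 to 28.8 (0.774). STAG2 percentiles at this site went from 95.85 to 96.98 and from 98.69 to 97.9.

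**Figure D3:**
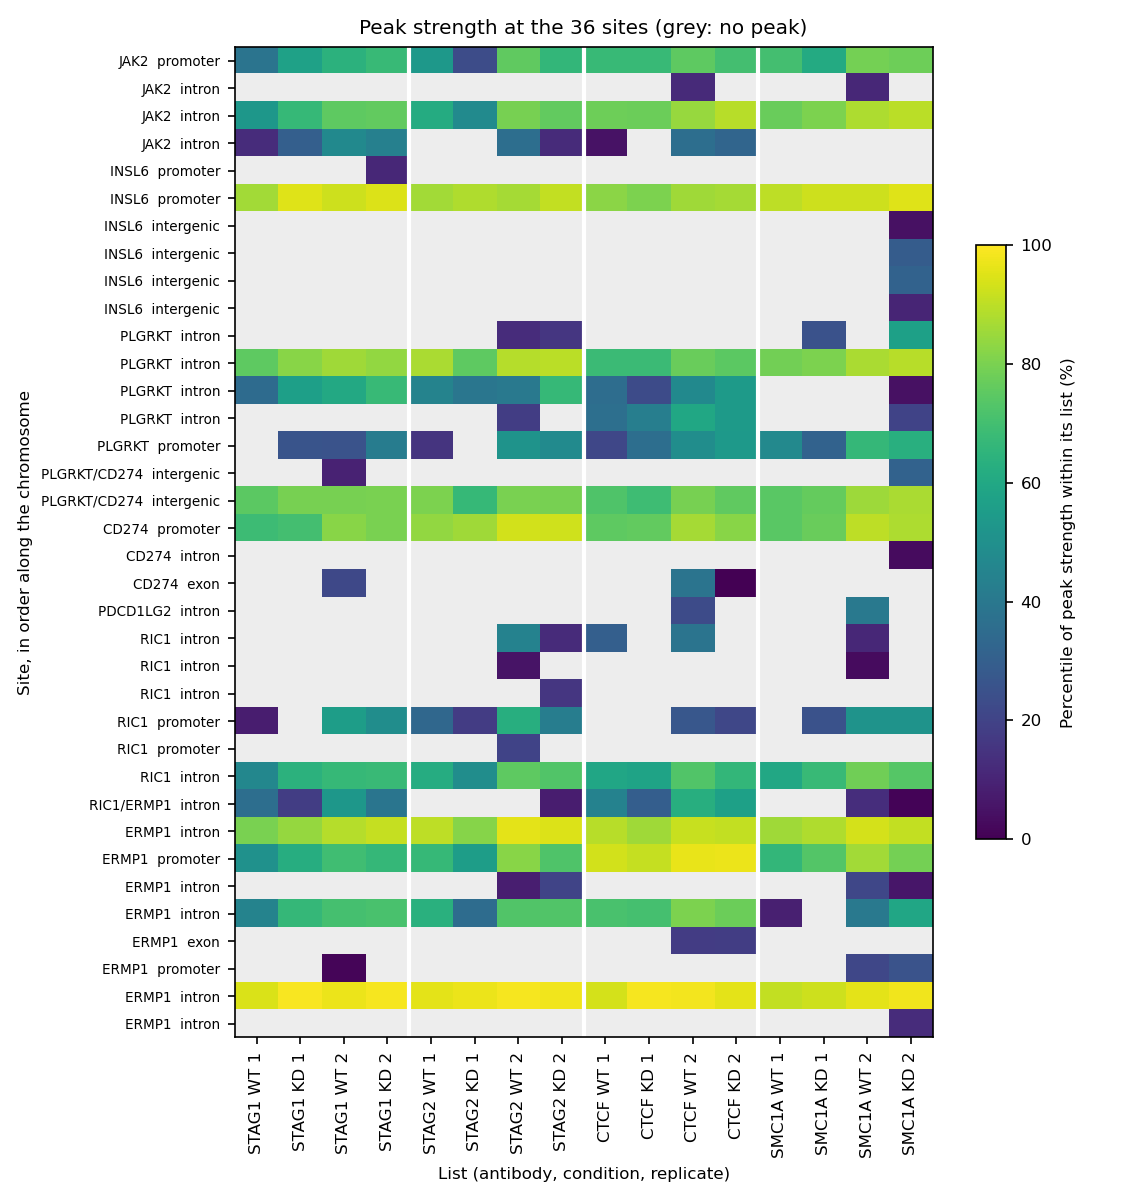
Percentile of peak strength within its list for the 36 sites (rows, in order along the chromosome) in the 16 lists (columns); grey means no peak. Rows that are filled across belong to the 10 sites with a peak in all lists, and most isolated cells fall in replicate 2.

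Changes between WT and KD were next counted site by site against the whole genome. Sites lost in both replicates (a peak in both WT lists and neither KD list) numbered 0 of 15 for STAG1, where 1.41% of such sites were lost over the genome. STAG2 lost 0 of 14 (4.98% over the genome), CTCF 1 of 17 (3.11%) and SMC1A 0 of 12 (3.22%). Sites gained in both replicates numbered 0 of 15 for STAG1 (6.18% over the genome). STAG2 gained 0 of 13 (0.734%), CTCF 0 of 15 (1.92%) and SMC1A 1 of 13 (5.7%). The CTCF site that was lost was chr9:5625907-5626251, 2.95 kb before RIC1, with 13 reads at the summit in WT replicate 1 and 16 in WT replicate 2. The SMC1A site that was gained was chr9:5389066-5389466 in a PLGRKT intron, with 10 and 17 reads in KD. Both were thin, with fold enrichments of 7.38 and 5.52 for the CTCF site and 4.91 and 4.95 for the SMC1A site.

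Within a replicate, STAG2 peaks were lost at 2 of 15 (13.3%) in replicate 1, where 32.2% were lost over the genome, and at 3 of 22 (13.6%) in replicate 2, where 22.1% were. STAG2 peaks were gained at 0 of 13 in replicate 1 (6.62% over the genome) and 2 of 20 in replicate 2 (12%). STAG1 peaks were gained at 1 of 15 (6.67%) and 1 of 18 (5.56%), below the genome's 31.7% and 18.6%, and lost at 1 of 15 and 4 of 22, where the genome had 6.42% and 13.6%. CTCF was lost at 2 of 17 and 3 of 23 (12.3% and 16.9% over the genome) and gained at 0 of 15 and 2 of 21 (15.1% and 12.1%). SMC1A was lost at 1 of 14 and 6 of 24 (19.1% and 25.8%) and gained at 6 of 17 (35.3%) and 11 of 30 (36.7%), where the genome had 28.6% and 29.7%. The STAG2 peaks that were lost were weak ones, between percentiles 13.1 and 15.1 in replicate 1 and between 5.42 and 20.1 in replicate 2, while those kept had medians of 66.9 and 75.2. No test was made of these counts, since sites are not replicates.

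The number of peaks in the windows was compared next. STAG1 had 15 peaks in WT and 15 in KD in replicate 1, then 22 and 18 in replicate 2. STAG2 had 15 and 13, then 22 and 20. CTCF had 17 and 15, then 23 and 21, and SMC1A had 14 and 17, then 24 and 30. The mean log2 changes were -0.14, -0.17, -0.16 and 0.30, with exact two-sided permutation p of 1, 0.667, 0.667 and 0.667 over the 4 lists of each antibody. The smallest p that 2 lists against 2 can give is 0.333, so this design cannot reach significance at 0.05.

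Peak strength was compared at the sites that an antibody occupied in all 4 lists. For STAG1 (14 sites) the median percentile was 51.7 in WT and 66.9 in KD of replicate 1, then 72.7 and 73.5 in replicate 2, while all 54425 such sites of the genome went from 56.2 to 67.4 and from 72.3 to 74. For STAG2 (13 sites) it went from 66.9 to 55.5 and from 79.8 to 76, against 67.8 to 56.2 and 78.9 to 76.4 over the genome. CTCF (15 sites) went from 71.4 to 68.9 and from 79.7 to 75.7, and stood above the genome medians of 58.3 and 59.4 and of 71.5 and 69.8. SMC1A (11 sites) went from 74.5 to 77.2 and from 87.2 to 87.6, above genome medians of 65 to 68.3 and 81.1 to 81.3. The mean changes were 7.96, -7.62, -3.24 and 1.5 percentile points, each with an exact permutation p of 0.667. A percentile also depends on the number of peaks in its list. With lists of equal length the changes were 0.792, -4.03, -3.52 and 0.197, in the same order. The percentile of STAG1 was higher in KD in both replicates at 9 of 14 sites (64.3%, genome 56.6%), and that of STAG2 lower in both at 7 of 13 (53.8%, genome 60.4%). The medians of STAG1, STAG2 and SMC1A moved in the direction of the genome medians in both replicates. For CTCF in replicate 1 they moved the other way, by -2.5 points against 1.12.

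**Figure D4:**
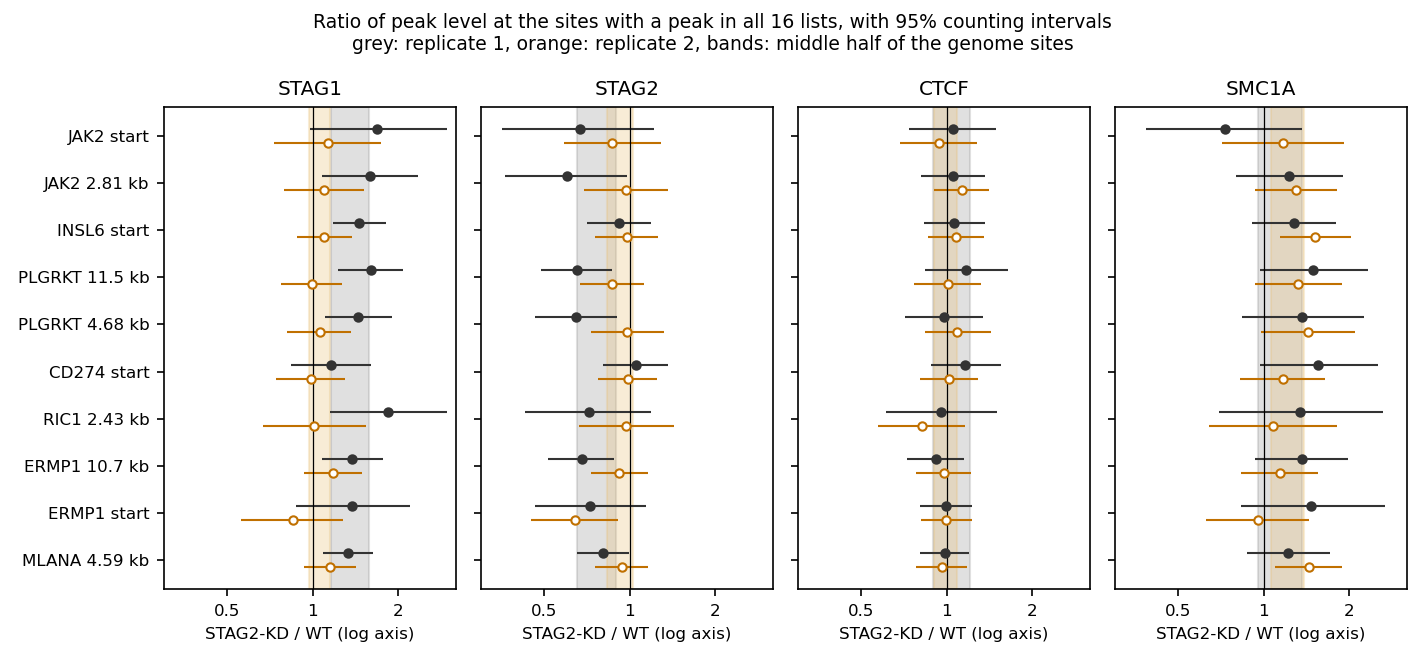
STAG2-KD to WT ratio of the peak level on a log axis at the 10 sites with a peak in all 16 lists, named by the nearest annotated coding transcript start and its distance; bars are 95% counting intervals and bands the quartile range of genome sites in replicate 1 (grey) and replicate 2 (orange). In replicate 1 STAG2 lies left of 1 at 9 of 10 sites, with CD274 the exception at 1.05, and STAG1 lies right of 1 at all 10. In replicate 2 STAG2 lies left of 1 at all 10 and STAG1 right of 1 at 7. By fold enrichment, not drawn here, the replicate 1 ratios at CD274 are 0.753 (STAG2) and 0.827 (STAG1). On that measure the 1 STAG2 ratio above 1 in replicate 1 is at the KIAA2026 intron site (1.21).

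Ratios of level were also counted over the 10 sites. In replicate 1 STAG2 was below 1 at 9 of 10 with a median of 0.698, and 5 intervals lay below 1. In replicate 2 it was below 1 at 10 of 10 with a median of 0.955, and 1 interval did. STAG1 was above 1 at 10 of 10 in replicate 1 (median 1.46, 7 intervals above 1) and at 7 of 10 in replicate 2 (median 1.08, 0 intervals). CTCF was below 1 at 5 of 10 in both replicates, with medians of 1.02 and 1 and 0 intervals that excluded 1. SMC1A was above 1 at 9 of 10 in both, with medians of 1.35 and 1.23. Fold enrichments over the local background had lower ratios at these sites in several cases. Their medians were 1.44 and 0.962 (STAG1), 0.719 and 0.79 (STAG2), 0.912 and 0.868 (CTCF) and 1.27 and 1.2 (SMC1A). The medians of STAG1 in replicate 2 and of CTCF in replicate 1 thus lay above 1 by level and below 1 by fold. By fold, CTCF was below 1 at 8 of 10 sites in replicate 1 and 9 of 10 in replicate 2. STAG2 was so at 9 and 7 of 10, while STAG1 was above 1 at 9 and 4 and SMC1A at 7 and 6. Genome medians of the fold ratios were 1.31 and 1.03 (STAG1) and 0.757 and 0.904 (STAG2). Those of CTCF were 1.03 and 0.974, and those of SMC1A 1.15 and 1.17. Genome medians of the ratios of level were 1.32 and 1.07 (STAG1), 0.765 and 0.92 (STAG2), 1.01 and 0.987 (CTCF) and 1.15 and 1.22 (SMC1A).

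The sites with the largest changes were then examined. In the overlap of RIC1 and ERMP1, at chr9:5773412-5774128, STAG1 went in percentile from 36.2 to 18.2 and from 52.9 to 38.8, the largest mean change of any STAG1 site and the 1 STAG1 site of 14 that was lower in KD in both replicates. Its STAG1 reads went from 22 to 12 and from 31 to 18, at ratios of 0.634 (0.286 to 1.34) and 0.64 (0.337 to 1.18). CTCF levels at this site went from 23.4 to 14.6 and from 21.2 to 16.8, and STAG2 had a peak in 1 of 4 lists there. In the PLGRKT intron at chr9:5428987-5429636 STAG1 went from a percentile of 34.9 to 56.3 and from 60.4 to 67.4, with 22 and 32 reads in replicate 1 and 41 and 44 in replicate 2. Its STAG1 rank went from 41383 to 37430 and from 38982 to 34156, in lists of 63535 and 85621, then 98453 and 104663 peaks. In the ERMP1 intron at chr9:5869332-5870453 STAG2 had 53 reads in WT and 19 in KD in replicate 1, a ratio of 0.377 (0.211 to 0.648), and 53 and 56 in replicate 2, a ratio of 1.03 (0.692 to 1.52). STAG1 at that site had 40 and 56 reads in replicate 1 and 64 and 55 in replicate 2. The STAG2 interval excluded 1 in replicate 1 and included it in replicate 2.

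Promoters of 16 genes of interferon and PD-1 signalling (1 kb around the 5′ gene bound) were read for context. STAG2 was present in all 4 lists at 8 of 16, STAG1 at 7, CTCF at 10 and SMC1A at 10, against 37.6%, 30.7%, 39.7% and 47.7% of all 20136 coding genes. STAT2, a partner of IRF9, was the 1 gene with a change in both replicates: its promoter had STAG2 and CTCF peaks in both WT lists and neither KD list. Over all coding genes, such a loss was seen at 0.382% for STAG2, 0.71% for CTCF, 0.194% for STAG1 and 0.238% for SMC1A. A gain in both replicates was seen at 1.59% (STAG1), 0.526% (STAG2), 0.467% (CTCF) and 0.546% (SMC1A), and at none of the 16. The promoters of IRF9, SOCS1, SOCS3 and CMTM6, the last a stabiliser of PD-L1 protein, had STAG1, STAG2 and CTCF in all 4 lists of each antibody. The promoters of IRF1 and PTPN2 had no STAG1, STAG2 or CTCF peak in any list.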

How the data were processed

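The 4 antibodies were read from 16 MACS2 peak lists of ChIP-seq libraries on hg19, with 2 libraries for each antibody and condition. Per the labels, replicate 1 was size selected with beads (200 to 600 bp) and aligned with Bowtie2, and replicate 2 was cut from a gel (200 to 500 bp) and processed with CASAVA 1.4, BWA, SAMtools, Picard and deepTools; tool versions beyond these are not given in the sources used here. The lists differ in their limits: the lowest −log10 q-value deposited in replicate 1 was 2, and the lowest −log10 p-value deposited in replicate 2 was 2. The authors gave each peak a fold enrichment over the local background, a −log10 p-value, a −log10 q-value and an integer score that equals 10 times the −log10 q-value (replicate 1) or −log10 p-value (replicate 2). Peaks off the main chromosomes (0.137 to 4.6% of a list) were left out.

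Members and lists were chosen with earlier results of these data known. Peaks that overlapped by 1 bp were merged into sites. The strength of a peak is the percentile of its −log10 p-value within its list, so it also depends on the number of peaks in that list. Whole reads at the summit were recovered from the p-value and the fold of a peak (374 of 374 peaks, 2 with more than 1 solution, tolerance 0.02 in −log10 p), taking 2.7 Gb as genome size and extending reads to the width of the narrowest peak (120 or 150 bp). A level is these reads divided by the genome background of the library, and ratios of levels carry 95% exact counting intervals, which cover counting error only. These ratios, and the ratios of fold enrichment beside them, were added after the lists had been examined. The genome values of the ratios of level come from every 10th site with a peak in all 4 lists of an antibody. Those of the fold ratios come from all such sites. A site without a peak has no value and is not a site without reads. Groups were compared with exact two-sided permutation tests over libraries, and libraries of 1 replicate number, which share a preparation, were also paired. The text names the 10 genes, sites lost or gained in both replicates, sites within 1 kb of a gene start, the 5 CTCF sites with the lowest sum of ranks and the 3 largest STAG1 and STAG2 changes; other sites named were chosen after their values were seen. Gene bounds and starts are from GENCODE lifted to hg19. Scripts used Python 3.11.15, numpy 2.4.6, scipy 1.17.1 and matplotlib 3.10.9 and were tested on simulated data. Alternatives were stricter, common and equal-length peak lists, other windows, a larger overlap, centred fold enrichments and each replicate alone. The values of 1 gene of the 16 in the interferon and PD-1 signalling list are not reported here by name.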

Additional observations from a re-analysis of the deposited data

Results flagged for a closer look

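The changes in the median percentile of pairs of antibodies pointed in opposite directions in both replicates; the differences themselves were not tested. The mean change of STAG1 exceeded that of STAG2 by 15.6 percentile points, with 15.1 and 0.8 for STAG1 in the 2 replicates against -11.5 and -3.79 for STAG2. Percentiles depend on list length, and in KD the STAG1 lists were longer and the STAG2 lists shorter. In replicate 1 they went from 63535 to 85621 peaks and from 79115 to 58521. With lists of equal length the mean changes were 0.792 for STAG1 and -4.03 for STAG2. Over the genome the medians moved by 11.3 and 1.65 for STAG1 and by -11.6 and -2.54 for STAG2. STAG1 also exceeded CTCF by 11.2 points. STAG2 minus SMC1A was -9.13 points and CTCF minus SMC1A was -4.74 points. CTCF moved by -2.5 and -3.97 in the windows (1.12 and -1.73 over the genome), and SMC1A by 2.68 and 0.33 (3.3 and 0.23). Taken site by site, the median SMC1A change in replicate 2 was -1.39, with 5 of 11 sites higher in KD, and that of CTCF -2.23, so that these 2 antibodies did not point in opposite directions on that measure. For STAG2 the median per-site change in replicate 2 was -0.793.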

How the results depend on the processing

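Of 116 alternative values, 107 stayed on the same side (the same direction, or a count within 1.5 times), 6 moved and 3 changed sign; the cause was not tested. Among the 107, 19 differed from the value reported by over 1.5 times in size, 12 of them with both replicates kept. With a −log10 q-value of at least 5, the STAG1 peak number change was 0.15 in place of -0.14, 1 STAG1 site was gained in both replicates in place of 0, and 0 SMC1A sites in place of 1. With lists of equal length, 1 STAG1 site was lost in both replicates in place of 0, and the STAG2 peak number change was 0. Equal lengths also gave percentile changes of 0.792 for STAG1 in place of 7.96, -4.03 for STAG2 in place of -7.62 and 0.197 for SMC1A in place of 1.5. With gene bounds alone, 0 CTCF sites were lost in place of 1, and the SMC1A percentile change was -0.181 in place of 1.5. With fold enrichments centred on the genome, the SMC1A change was -0.0172 on the log2 scale, and that of STAG1 0.0157.

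With 1 replicate left out, the log2 peak number change ranged from -0.29 to 0 for STAG1, from -0.21 to -0.14 for STAG2, from -0.18 to -0.13 for CTCF and from 0.28 to 0.32 for SMC1A. The percentile change ranged from 0.8 to 15.1 for STAG1, from -11.5 to -3.79 for STAG2, from -3.97 to -2.5 for CTCF and from 0.324 to 2.68 for SMC1A. STAG1 and STAG2 thus moved more in replicate 1 than in replicate 2. With a replicate block, the paired changes were the same values (-0.14, -0.17, -0.16 and 0.30 in log2 peak number, and 7.96, -7.62, -3.24 and 1.5 percentile points), with exact sign-flip p of 1 for the STAG1 peak number and 0.5 for the others; 0.5 is the smallest p that 2 pairs can give. The block changed no call.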
